A study of Mus musculus with 8 samples.

Results

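The genes examined encode parts of the dystrophin complex and 2 muscle membrane proteins that work beside it: Cav3, Sgca, Sgcb, Sgcd, Dmd, Dag1, Utrn and Dysf. Members were all probe sets that the platform annotation assigns to 1 of these 8 symbols and to no other. They numbered 18 of the 45037 probe sets tested, and each of the 8 genes had at least 1. Cav3, Sgca, Sgcd and Dysf had 1 probe set each, Sgcb and Utrn had 3 each, and Dmd and Dag1 had 4 each.

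The values come from 8 arrays of C2C12, an established mouse myoblast line whose cells fuse into myotubes when serum is reduced. Cultures of the first group, 4 in number, carried a lentivirus encoding an siRNA that targets DOR. Trp53inp2 encodes this protein, which acts with nuclear receptors and in autophagy. The 4 control cultures also carried a lentivirus, encoding scrambled RNA, so both groups share the infection. Per the labels' protocols, both groups were transduced at an moi of 100, expanded for 5 to 7 days, sorted to 93 to 99% GFP-positive cells and held in 5% horse serum for 4 days. The cells are a sorted pool of a cultured line. The labels call them confluent myoblasts, their descriptions carry a mark D2 that is not explained, and the protocol gives the days in horse serum above, so the stage at harvest is not settled. How the biological replicates of a group were derived from the line is not stated, so p-values measure the spread between these cultures only.

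The label of the knockdown held: the brighter Trp53inp2 probe set read 10.92 to 11.55 log2 units in the scrambled arrays and 9.18 to 9.93 in the DOR siRNA arrays (difference -1.83 ± 0.17 SE, limma adjusted p = 0.00087), while a dimmer one did not pass (0.14 ± 0.08). Muscle differentiation markers were bright on all arrays. Averaged over the 8 myotube markers, levels ran from 13.48 to 13.71 in the scrambled arrays and from 13.04 to 13.29 in the DOR siRNA arrays. Of these markers 2 fell past the threshold (4 in the paired fit described below), and all 8 differences were negative. Markers of proliferating myoblasts averaged 8.05 to 8.29 and 8.63 to 8.84 in the same order, and 3 of the 5 measured rose (4 in the paired fit). Fibroblast markers averaged 6.75 to 6.93 and 6.97 to 7.28, with Pdgfra, 1 of the 5, higher. In the paired fit 3 of the 5 were higher, Lum and Dcn being added. Over all 18193 genes 1.45% fell and 3.11% rose by limma, and 3.16% fell and 5.1% rose in the paired fit. None of the 2 adipocyte, 4 endothelial and 4 macrophage markers measured passed the limma test in either fit (at an unadjusted p under 0.05, 1 macrophage marker was lower). These marker shifts accompany each result below, and their part in it was not tested. The 3' minus 5' difference of the beta-actin control ran from 0.31 to 0.40 in the scrambled and from 0.28 to 0.50 in the DOR siRNA arrays. For the Gapdh control it ran from -0.15 to -0.11 and from -0.16 to 0.07.

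Dystrophin, encoded by Dmd, ties the actin cytoskeleton beneath the muscle membrane to dystroglycan, the product of Dag1, which binds laminin outside the cell. The sarcoglycans, Sgca, Sgcb and Sgcd among them, form a membrane subcomplex that steadies this link. Utrophin, encoded by Utrn, is the autosomal relative of dystrophin and lines the membrane of immature muscle before it is confined to the neuromuscular junction. Caveolin 3 shapes the caveolae of muscle fibres, and dysferlin, a ferlin with calcium-binding C2 domains, takes part in resealing membrane tears. Loss of dystrophin, sarcoglycans, caveolin 3 or dysferlin is known to cause muscle disease.

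Every member probe set had a lower mean after DOR knockdown, but none of the 18 passed the limma test over all probe sets, of which 3.22% passed in either direction (1.19% lower and 2.04% higher). A probe set passed at a Benjamini-Hochberg adjusted p under 0.05. All 18 differences (DOR siRNA minus scrambled, log2 units) were negative, where 49.3% of all probe sets were. They ran from -1.55 to -0.10 with a median of -0.20, beside a median of 0.0021 over all probe sets. At an unadjusted p under 0.05, 7 of the 18 were lower and 0 higher, against 6.88% of all probe sets that were lower by that mark. The 4 DOR siRNA values lay wholly under the 4 scrambled ones for 3 of the 18, and for 4.05% of all probe sets, while 5.8% of all separated the other way. Probe sets of 1 gene read the same transcripts, so the 18 are not 18 separate observations. In bulk RNA, fewer cells that express a gene and less transcript per cell cannot be told apart.

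**Figure D1:**
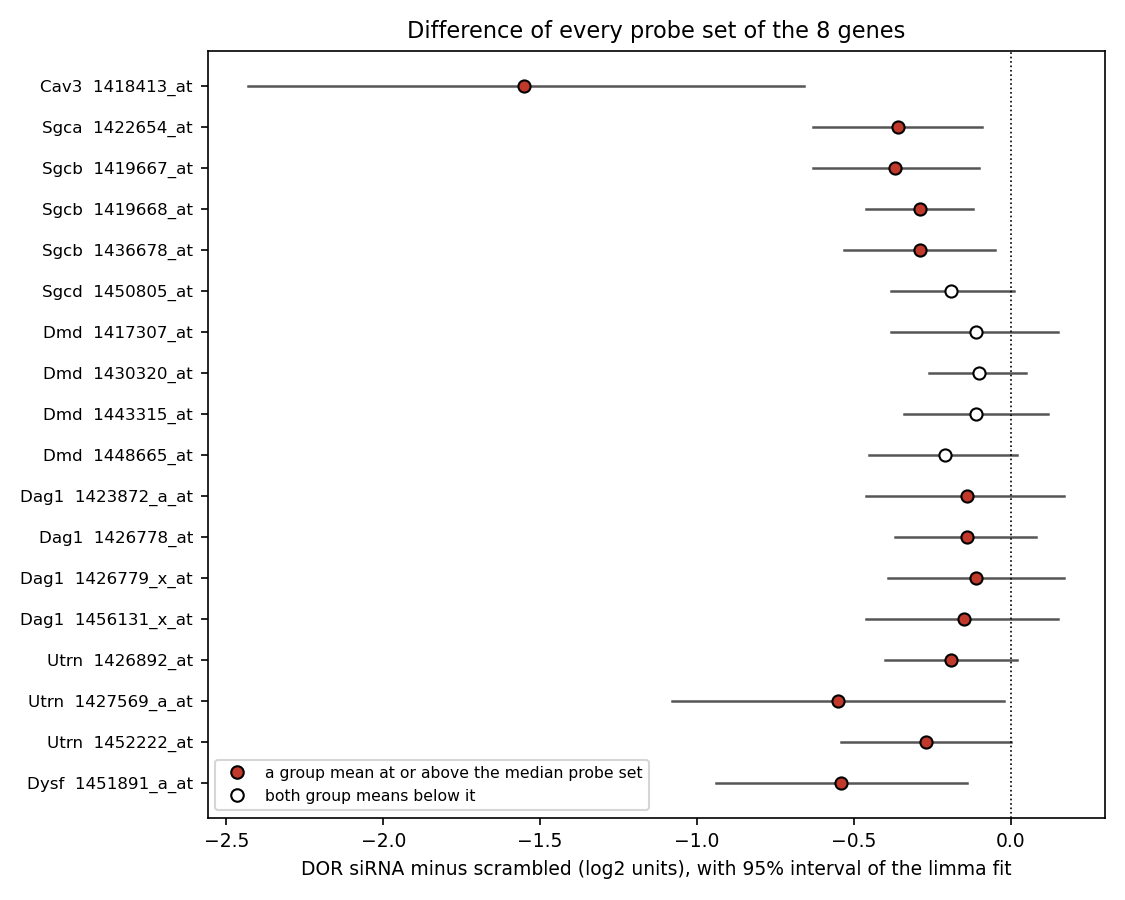
Difference between the groups for each of the 18 probe sets, in log2 units on the horizontal axis, with its 95% interval from the limma fit of 4 DOR siRNA against 4 scrambled arrays. All 18 points lie left of 0, Cav3 farthest at -1.55, and the 5 open points (Sgcd and the 4 of Dmd) have both group means under the median of all probe sets.

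Same-numbered cultures of the 2 groups tended to deviate together, so limma was also run with that number as a blocking term. This is named the paired fit from here on. The pairing is not certain, since 5 of the 8 arrays correlated best with the same-numbered array of the other group. It called 2 of the 18 probe sets lower, those of Cav3 and Dysf. Of all probe sets it called 6.28%, with 2.81% lower and 3.47% higher. The remaining probe sets did not pass in either fit.

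Caveolin 3 showed the widest gap of the 8 genes and the widest spread. Its probe set read 10.37, 10.72, 10.03 and 9.30 log2 units in scrambled cultures 1 to 4 and 9.45, 9.08, 8.24 and 7.45 in DOR siRNA cultures 1 to 4. The groups overlapped only in that DOR siRNA 1 lay above scrambled 4, and culture 4 was the lowest of each group. The means were 10.10 ± 0.61 and 8.56 ± 0.89 (SD, n = 4 each), a difference of -1.55 ± 0.40 (SE) or 2.92-fold, with a 95% interval from -2.43 to -0.66. The adjusted p was 0.066 by limma without pairing and 0.0016 with it. Within same-numbered cultures the differences were -0.92, -1.64, -1.79 and -1.84, so the knockdown culture was the lower in 4 of 4 pairs. Without scrambled 4 the unpaired difference was -1.82 (limma adjusted p = 0.0277) and without DOR siRNA 1 it was -1.84 (0.0461), while leaving out any other array gave limma adjusted p between 0.0601 and 0.186.

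The promoter window of Cav3, 250 bases before to 50 after the transcript start from RefSeq, is shown because this gene had the widest gap. It spans chr6:112459255-112459554 on the plus strand of GRCm38.p6. Capitals mark the E-box letters CANNTG, the core that myogenic bHLH factors and other factors of that class can bind.
Cav3: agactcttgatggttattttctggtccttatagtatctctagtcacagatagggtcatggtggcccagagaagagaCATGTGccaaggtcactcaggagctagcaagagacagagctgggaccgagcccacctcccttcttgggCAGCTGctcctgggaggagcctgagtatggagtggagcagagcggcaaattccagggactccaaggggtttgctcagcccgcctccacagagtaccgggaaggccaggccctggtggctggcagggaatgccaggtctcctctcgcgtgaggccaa
This window holds 2 such matches. By script, read on both strands, 8 of the 11 windows that RefSeq gave for the 8 genes held at least 1 CANNTG. So did 72.3% of all 32851 windows of this length, 1 chromosome being left out of that count. The 2 windows of Dag1 overlap and share their only match, which is thus counted in both. The narrower form CAGCTG, which is itself a CANNTG, was in 1 of the 11, that of Cav3, and in 16.3% of all windows. The MEF2 motif was in 1 of the 11, a window of Dmd, and in 3.19% of all.

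Dysferlin had the next largest gap among brightest probe sets. Its single probe set read 9.11, 9.05, 9.17 and 8.60 in scrambled cultures 1 to 4 and 8.57, 8.92, 8.23 and 8.04 in the DOR siRNA cultures. As with Cav3, culture 4 was the lowest of each group, and DOR siRNA 2 lay among the scrambled values. The means were 8.98 ± 0.26 and 8.44 ± 0.39 (SD, n = 4 each), a difference of -0.54 ± 0.18 (SE) with limma adjusted p = 0.156. The paired fit gave an adjusted p of 0.0315, with paired differences of -0.53, -0.13, -0.94 and -0.56. Without DOR siRNA 2 the unpaired difference was -0.70 (limma adjusted p = 0.0413), while leaving out any other array gave limma adjusted p between 0.0573 and 0.349.

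The sarcoglycans showed smaller gaps over a tighter spread. Alpha-sarcoglycan, the form restricted to striated muscle, read 10.65, 11.16, 10.72 and 10.62 in the scrambled cultures and 10.33, 10.30, 10.59 and 10.48 in the DOR siRNA cultures. These groups did not overlap, although the nearest values, 10.62 and 10.59, were close. The difference of Sgca was -0.36 ± 0.12 (SE, limma adjusted p = 0.159), with a 95% interval from -0.63 to -0.09.

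Beta-sarcoglycan, which is made in many tissues, was read by 3 probe sets that pointed the same way. The brightest read 10.82, 10.91, 10.83 and 11.01 in the scrambled cultures and 10.67, 10.15, 10.55 and 10.73 in the DOR siRNA cultures, again without overlap. The second, 1419668_at, read 10.54, 10.59, 10.66 and 10.76 against 10.33, 10.36, 10.28 and 10.44, and it too separated the groups. In the third, 1436678_at, DOR siRNA 2 (9.88) lay among the scrambled values of 9.70 to 9.90, and the other DOR siRNA values were 9.39 to 9.49. Their differences were -0.37 ± 0.12, -0.29 ± 0.08 and -0.29 ± 0.11 (SE), with limma adjusted p of 0.141, 0.0724 and 0.207. Averaging a gene's probe sets before the fit gave Sgcb a difference of -0.32 that passed (limma adjusted p = 0.0105). That adjustment ran over 18193 genes and not over all probe sets, so its adjusted p is not on the same footing as the 3 above. Without DOR siRNA 2 the third probe set of Sgcb passed on its own (-0.40, limma adjusted p = 0.0279). With any other array left out it did not pass (limma adjusted p between 0.142 and 0.415).

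Delta-sarcoglycan was dim. Its probe set read 5.15 to 5.40 in the scrambled and 4.96 to 5.19 in the DOR siRNA arrays, under the median of all probe sets (6.18). The difference of Sgcd was -0.19 ± 0.09 (SE, limma adjusted p = 0.342), on a signal not shown to be above background, since the deposited values carry no detection call.

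Dystroglycan was the brightest member and among those with the smallest gaps. Its brightest probe set read 12.35, 12.26, 12.35 and 11.99 in the scrambled and 12.11, 12.25, 12.07 and 11.94 in the DOR siRNA cultures. The groups overlapped, and culture 4 was again the lowest of each. The 4 probe sets of Dag1 gave differences between -0.15 and -0.11, each with a 95% interval that included 0 and the widest of them reaching from -0.46 to 0.17. A decrease of up to 0.46 log2 units or an increase of up to 0.17 is thus within the reach of these data.

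Dystrophin itself could not be followed. The 4 probe sets of Dmd read 2.38 to 3.90 on all 8 arrays, under the lower quartile of all probe sets (4.72). Their differences lay between -0.21 and -0.10, and limma adjusted p ran from 0.386 to 0.762. None was shown to be above background. Which dystrophin isoforms the probe sets read is not given in the sources used here.

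Utrophin, in contrast, was bright by its main probe set. That probe set read 10.78, 10.51, 10.89 and 11.04 in the scrambled cultures and 10.38, 10.43, 10.58 and 10.76 in the DOR siRNA cultures, with overlap. The difference of this probe set of Utrn was -0.27 ± 0.12 (SE, limma adjusted p = 0.327), and the knockdown culture was the lower in 4 of 4 pairs. A second probe set, 1427569_a_at, read 8.35, 8.22, 8.70 and 8.66 against 8.10, 7.09, 8.12 and 8.44. Its difference was -0.55 ± 0.24 (limma adjusted p = 0.307) and -0.26 without DOR siRNA 2, the lowest array. The third, 1426892_at, stood near the median of all probe sets, at 6.07 to 6.39 in the scrambled and 5.86 to 6.15 in the DOR siRNA arrays, a difference of -0.19 ± 0.09 (limma adjusted p = 0.379).

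**Figure D2:**
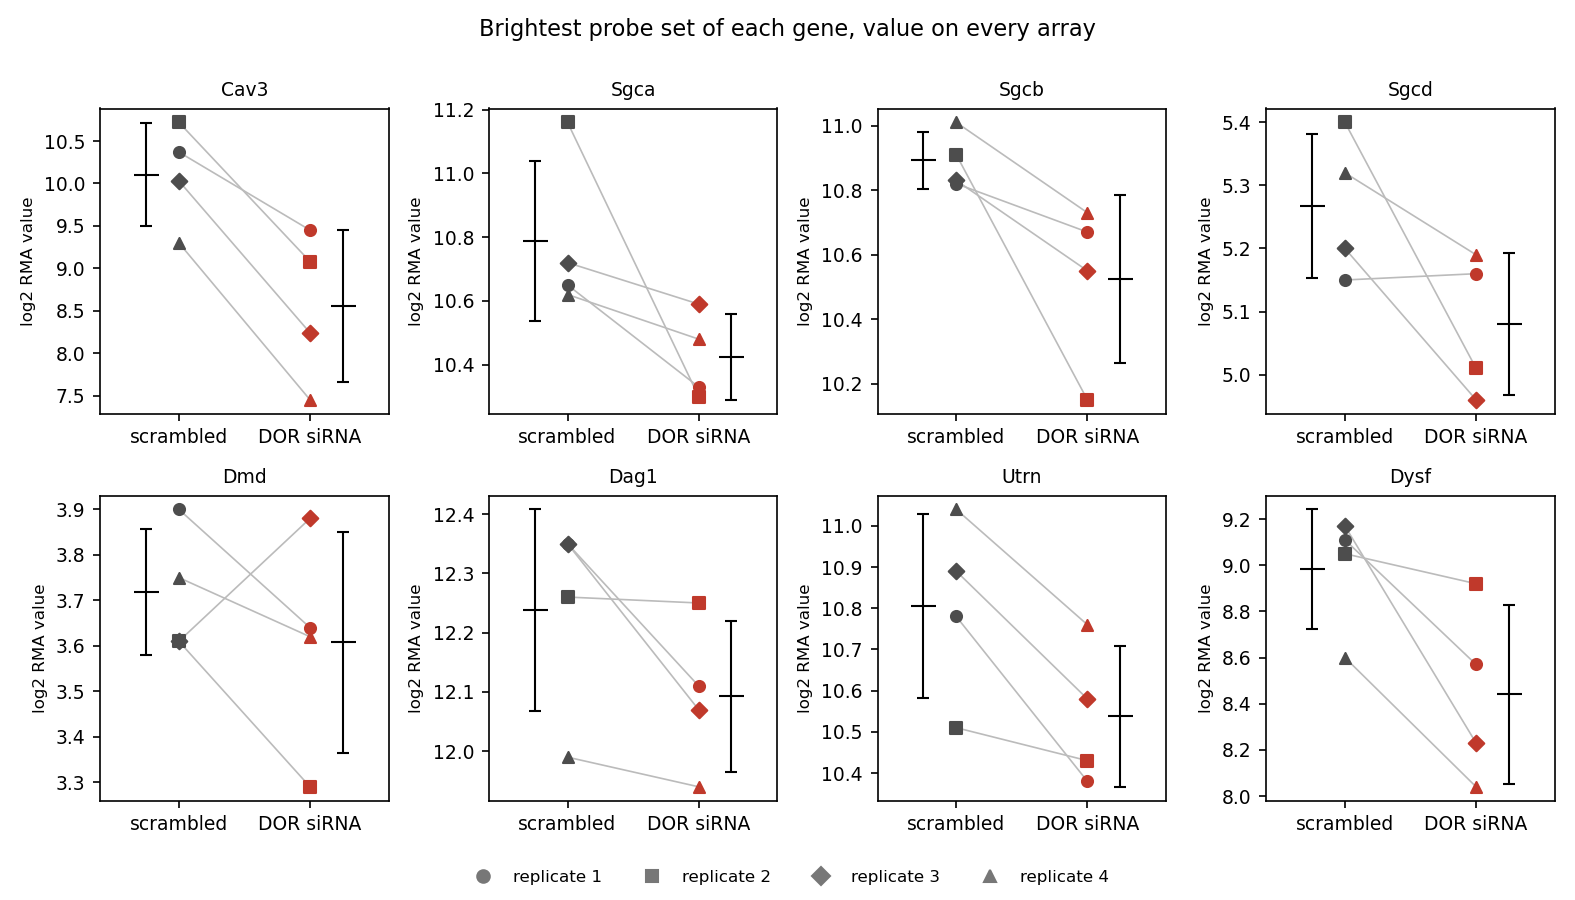
Log2 RMA value of the brightest probe set of each of the 8 genes on every array, with 1 panel per gene on its own vertical scale. Symbols give the replicate number, grey lines join same-numbered cultures, and bars give the group mean and SD (n = 4); Cav3 lies lower in the knockdown culture along all 4 lines (differences from -1.84 to -0.92), while Dmd lies between 3.29 and 3.90.

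Muscle forms were then set against their more widely expressed relatives on the same array, which asks whether related genes moved unequally. The difference of the 2 brightest probe sets was taken on each array for 4 pairs and compared between groups by an exact two-sided permutation test, whose smallest p is 0.0286 with 4 against 4 arrays. Only the shift between groups is read from it, since levels of different probe sets are not on a common scale.

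Caveolin 3 against caveolin 1, the caveolin of most other cell types, gave the largest of the 4 shifts. Cav3 minus Cav1 was 0.01, 0.51, 0.02 and -0.91 in the scrambled cultures and -1.69, -2.48, -2.59 and -3.0 in the DOR siRNA cultures. The groups did not overlap, and the shift was -2.35 (exact permutation p = 0.0286, and 0.0571 adjusted over the 4 pairs). Cav1 contributed by rising: it read 10.36, 10.21, 10.01 and 10.20 against 11.14, 11.56, 10.84 and 10.45, a difference of 0.80 ± 0.19 (SE, limma adjusted p = 0.0482). That call held without DOR siRNA 4 and was lost without any other single array (limma adjusted p from 0.0537 to 0.139), as well as with median centring (0.0627) and with a variance trend and robust prior (0.0617). For comparison with the Cav3 window above, both Cav1 windows of RefSeq are printed with the same letters in capitals, chr6:17306085-17306384 and chr6:17307390-17307689 of GRCm38.p6, plus strand.
Cav1, upstream window: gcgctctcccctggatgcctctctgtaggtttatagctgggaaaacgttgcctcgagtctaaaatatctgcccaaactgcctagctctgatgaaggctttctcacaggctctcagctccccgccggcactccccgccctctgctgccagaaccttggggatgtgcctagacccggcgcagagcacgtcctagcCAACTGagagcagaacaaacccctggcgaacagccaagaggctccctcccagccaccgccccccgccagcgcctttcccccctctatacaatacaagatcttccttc
Cav1, downstream window: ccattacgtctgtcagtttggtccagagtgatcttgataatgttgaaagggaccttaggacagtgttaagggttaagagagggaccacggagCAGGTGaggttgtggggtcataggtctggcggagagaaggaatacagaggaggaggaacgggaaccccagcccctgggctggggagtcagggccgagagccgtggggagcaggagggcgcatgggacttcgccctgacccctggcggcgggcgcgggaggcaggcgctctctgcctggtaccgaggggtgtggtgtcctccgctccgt
Each Cav1 window holds 1 CANNTG, and the windows hold 13 and 16 CpG dinucleotides against 6 in that of Cav3. Of all windows 47.9% hold at most 6, 63.7% at most 13 and 68.6% at most 16.

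Alpha-sarcoglycan against epsilon-sarcoglycan, its more widely made relative, also separated the groups. Sgca minus Sgce was 1.39, 1.83, 1.57 and 1.08 in the scrambled cultures and 0.46, 0.50, 0.69 and 0.68 in the DOR siRNA cultures. The shift was -0.89 (exact permutation p = 0.0286, and 0.0571 adjusted). Sgce read 9.26, 9.33, 9.15 and 9.54 against 9.88, 9.80, 9.90 and 9.81 without overlap, a rise of 0.53 ± 0.09 (SE, limma adjusted p = 0.0121). A dimmer probe set of Sgce, at 5.74 and 5.70, did not follow, and the mean of both gave 0.24 (limma adjusted p = 0.126). The promoter window of Sgca, chr11:94976278-94976577 on the minus strand of GRCm38.p6, is printed as that of the muscle form of this pair.
Sgca: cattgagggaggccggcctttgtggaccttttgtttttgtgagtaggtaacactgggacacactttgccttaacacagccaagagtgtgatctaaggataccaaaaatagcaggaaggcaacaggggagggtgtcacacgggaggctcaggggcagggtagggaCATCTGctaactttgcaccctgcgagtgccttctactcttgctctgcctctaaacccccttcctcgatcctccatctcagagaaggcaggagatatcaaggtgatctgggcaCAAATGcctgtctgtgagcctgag
It holds 2 CANNTG matches and 4 CpG dinucleotides, and 38% of all windows hold at most 4.

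For the other 2 pairs the groups overlapped. Dysf minus Myof, myoferlin being the ferlin of myoblasts, shifted by -0.54 (exact permutation p = 0.20, and 0.267 adjusted), while Myof itself differed by -0.01 ± 0.13 (SE). Within same-numbered cultures the shifts of Dysf minus Myof were -0.36, -0.24, -0.86 and -0.67, lower in 4 of 4 pairs. Dmd minus Utrn shifted by 0.16 (exact permutation p = 0.40 and 0.40 adjusted), a value that rests on the dim Dmd signal. Adjusted over the 4 gene pairs, none passed. That test does not use the pairing of cultures. An exact two-sided sign-flip test of the 4 within-pair shifts, added after the data were seen, gave its smallest possible p of 0.125 (0.167 adjusted over the gene pairs) for Cav3 minus Cav1, Sgca minus Sgce and Dysf minus Myof, each lower in 4 of 4 pairs, and 0.50 for Dmd minus Utrn, lower in 1 of 4.

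**Figure D3:**
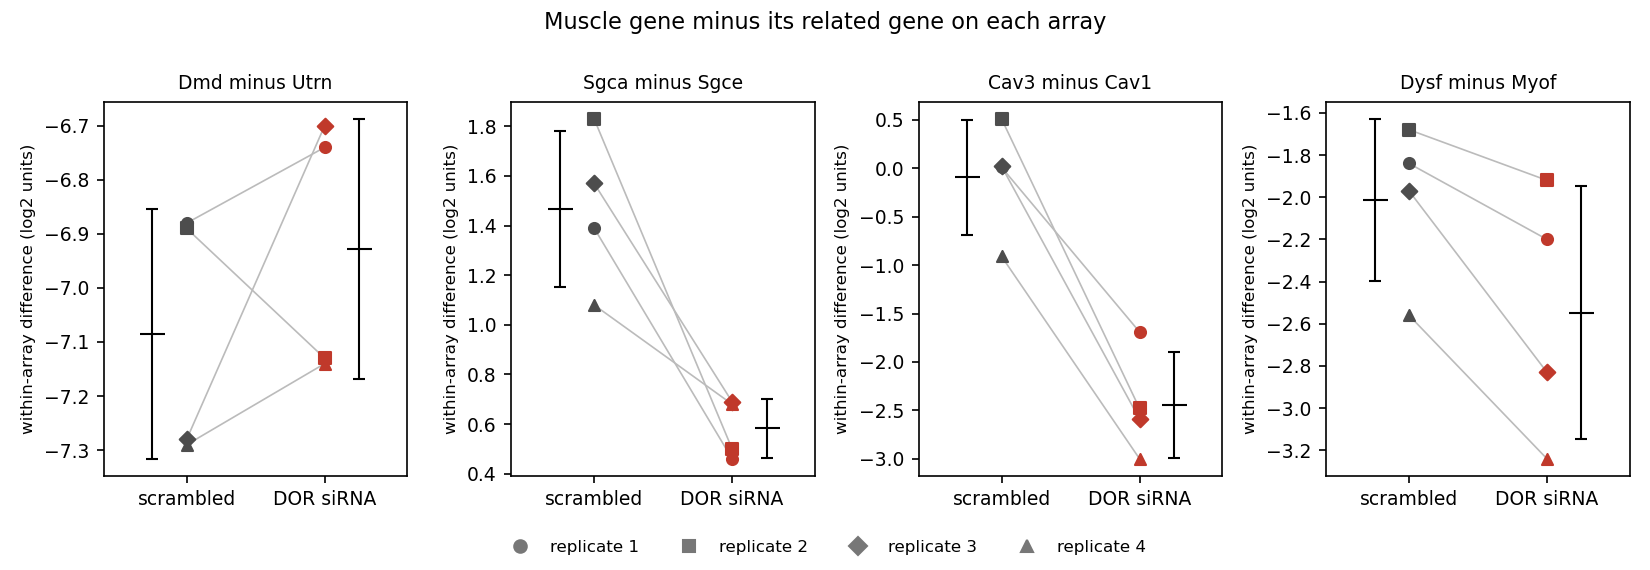
Within-array difference in log2 units between the brightest probe sets of each muscle gene and its relative, 1 panel per pair on its own vertical scale, with symbols for the replicate number and bars for mean and SD (n = 4). The groups separate for Sgca minus Sgce and Cav3 minus Cav1 and overlap for the other 2 pairs.

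Other genes of these membrane systems were counted from 5 lists, each gene by its brightest probe set. Beside their counts stand the shares over all 18193 genes, 1.45% lower and 3.11% higher by limma, and 3.16% and 5.1% in the paired fit. At an unadjusted p under 0.05, 6.55% of all genes were lower and 11.5% higher. Among 11 measured genes of the rest of the dystrophin complex (syntrophins, dystrobrevins, sarcospan, the neuronal nitric oxide synthase and others), Sgce rose, 0 fell and 10 did not pass, with a median of 0.01. At an unadjusted p under 0.05, 1 of them was lower and 2 were higher.

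None of 15 measured genes that put the laminin-binding sugar chain on dystroglycan passed the limma test. At an unadjusted p under 0.05, 1 was lower and 0 were higher, and the median was -0.005. The smallest p belonged to B3galnt2, a sugar transferase of that chain (-0.24 ± 0.10 SE, limma adjusted p = 0.293), followed by Pomgnt2, another such transferase (0.13 ± 0.07, 0.442). A dimmer probe set of B3galnt2, named after its values were seen, passed with a fall of 0.36 (limma adjusted p = 0.032).

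Caveolar genes moved in both directions. Of 11 measured, 3 rose, 2 fell and 6 did not pass, with a median of 0.35. By the unadjusted mark of 0.05, 5 were higher and 3 lower. Cavin4, the cavin of striated muscle, read 12.56, 12.55, 12.38 and 12.48 in the scrambled cultures and 12.05, 11.88, 11.67 and 11.64 in the DOR siRNA cultures, a fall of 0.68 (SE 0.10, limma adjusted p = 0.00639). Pacsin3, a membrane-bending protein abundant in muscle, fell by 0.38 (SE 0.08, 0.0272).

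In the other direction, Cavin3, a cavin found outside muscle as well, read 8.70, 8.74, 8.82 and 8.96 against 9.60, 9.58, 9.54 and 9.61. Its rise of 0.78 ± 0.08 (SE, limma adjusted p = 0.00109) was wider than the spread of either group. Cav2, which assembles with caveolin 1, read 7.69, 7.93, 7.39 and 7.99 against 9.12, 9.18, 8.41 and 8.33, a rise of 1.01 ± 0.21 (limma adjusted p = 0.0264). Neither group overlapped the other for any of these 4 genes. Cavin3 and Cavin4 kept their calls under all 15 alternatives, whereas Cav2 missed the threshold with culture 1, 2 or 3 of the scrambled group or culture 1 of the DOR siRNA group left out, where its largest limma adjusted p was 0.0841, and as the mean of its probe sets (0.46, 0.0569). Pacsin3 missed it with any 1 array out except scrambled 4 and DOR siRNA 2, with 0.0823 as its largest limma adjusted p. The paired fit called 5 caveolar genes higher, adding Cavin2 and Ehd2, and 3 lower, adding Bin1, a shaper of T-tubules.

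Genes of membrane repair other than Dysf held 3 that rose and 0 that fell among 27 measured, with 24 not past the test and a median of 0.05. At an unadjusted p under 0.05, 7 were higher and 1 was lower. Those that rose are calcium-dependent membrane binders or their partner. Anxa5 read 12.03, 11.81, 11.92 and 12.06 against 12.42, 12.53, 12.45 and 12.51, a rise of 0.52 ± 0.08 (SE, limma adjusted p = 0.00711). Anxa2 rose by 0.41 ± 0.08 (0.0234) and S100a10, which binds annexin A2, by 0.57 ± 0.12 (0.0326). Anxa5 kept its call under all 15 alternatives. Anxa2 and S100a10 each missed the threshold with any 1 array out except scrambled 4 and DOR siRNA 2, the largest limma adjusted p being 0.0776 for Anxa2 and 0.106 for S100a10. Anxa2 also lost it as the mean of its probe sets (0.22, 0.116). The paired fit called 6 higher, adding Anxa1, Anxa4 and Capn2, and 1 lower, Capn3, the muscle calpain.

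On the matrix side, among 25 measured laminins, basal lamina proteins and their receptors, 1 rose, 1 fell and 23 did not pass, with a median of 0.11. By the unadjusted mark of 0.05, 8 were higher and 2 lower. Nid1, nidogen, which bridges laminin and collagen, rose by 0.61 ± 0.11 (SE, limma adjusted p = 0.0177) and lost the call only without DOR siRNA 3 (0.0541). Itga6, a laminin-binding integrin chain, fell by 0.53 (SE 0.11, 0.0298) but kept the call only without scrambled 2 or 4 or DOR siRNA 2 among the fits on 7 arrays (largest limma adjusted p 0.0939), and missed it as the mean of its probe sets (-0.51, 0.0511). The paired fit called 2 lower, adding Bcam, a laminin receptor.

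**Figure D4:**
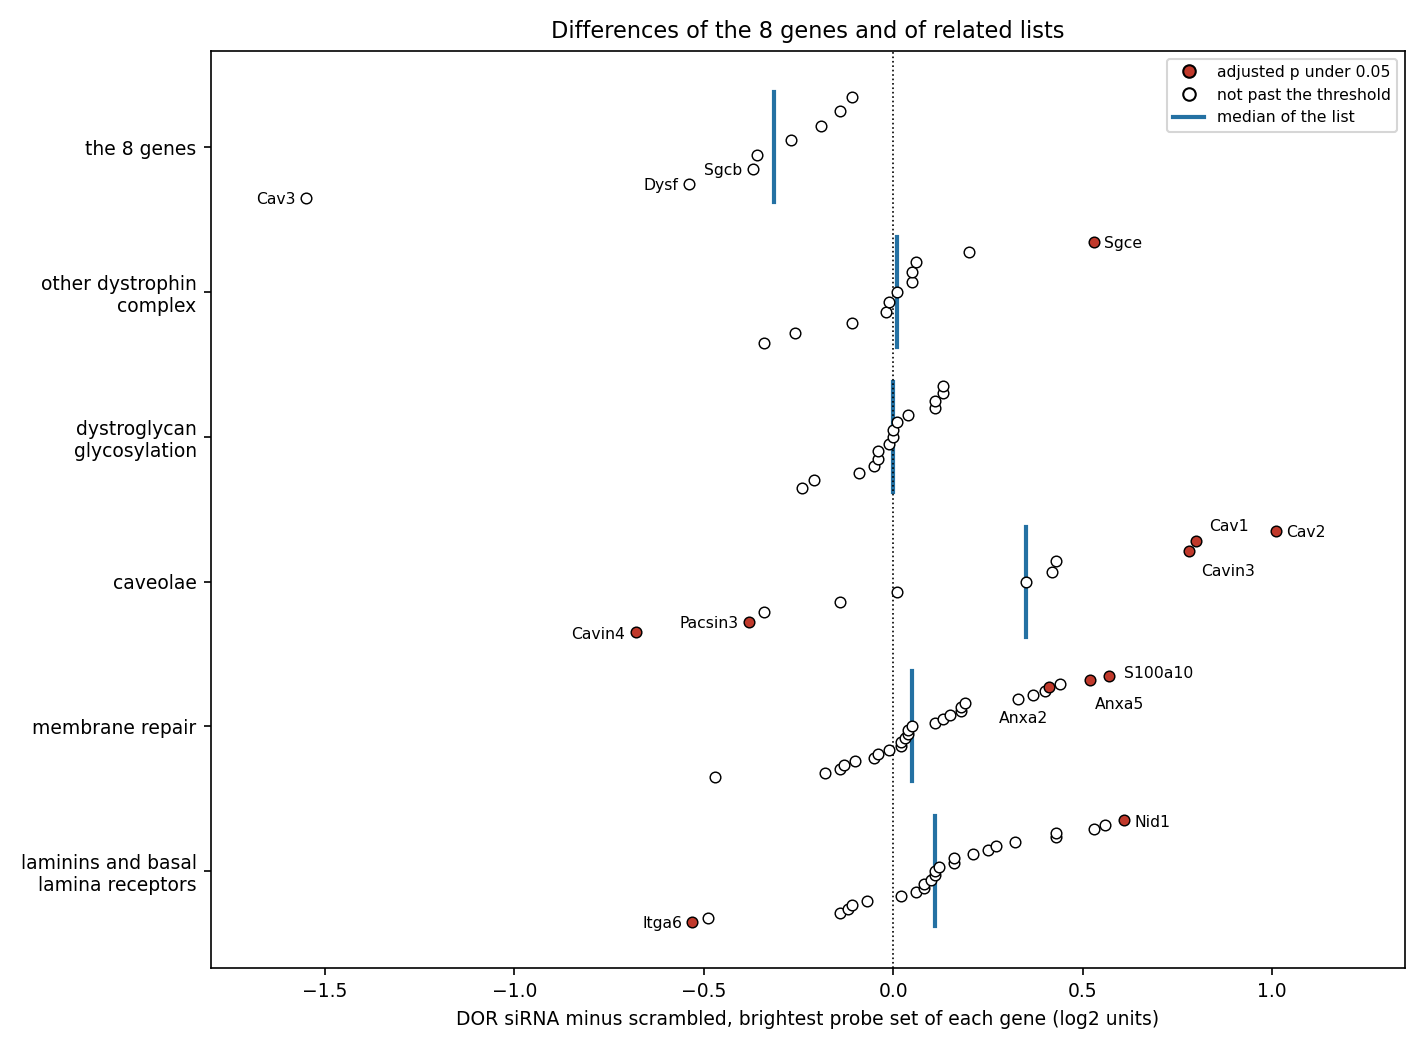
Difference between the groups (DOR siRNA minus scrambled, log2 units) for the brightest probe set of each gene, for the 8 genes and for 5 related lists, with red points past an adjusted p of 0.05 and a blue bar at each list's median. The 8 genes lie left of 0 with no red point, while the caveolar genes hold 3 red points right of 0 and 2 left of it.

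Within the groups, members did not vary as a unit. Deviations of each array from its group mean were compared with those of Cav3 over the 8 arrays, as a description of arrays that share 2 groups and, in part, their pairing. Pearson's r with Cav3 was 0.82 for Dysf and 0.75 for Dag1, near 0 for Sgca (0.07), -0.45 for Sgcb and -0.92 for Utrn. For the dim probe sets of Sgcd and Dmd it was -0.07 and -0.30. So cultures with more Cav3 had more Dysf and less Utrn within their group. The Cav3 deviations largely followed the replicate number. They were 0.265, 0.615, -0.071 and -0.809 in scrambled 1 to 4, and 0.894, 0.525, -0.315 and -1.104 in DOR siRNA 1 to 4. The 8 points are thus not 8 separate observations, and the margin on each r, also on those below, is wide. Over the 8 myotube markers it ranged from -0.53 for Ttn, titin, to 0.98 for Ckm, the muscle creatine kinase, and Tnnt3. Between these lay Mylpf (-0.06), Myh3 (0.25), Myog (0.33), Acta1 (0.47) and Des (0.50). Among 11264 other genes with a mean at or above the median, those most like Cav3 were Lzic (0.997), Myg1 (0.993), Tnnt1 (0.986), Atraid (0.985) and Tnnt3 (0.983). Tnnt1 and Tnnt3 encode the slow and fast troponin T of skeletal muscle. Of the 5, Tnnt3 also fell past the threshold (-0.70, limma adjusted p = 0.0364), and the other 4 did not pass. For the dim Dmd probe set the most similar of 11265 genes were Cpne5 (0.963), Spring1 (0.961), Zscan22 (0.96), Prelid1 (0.95) and Copz1 (0.945).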

How the data were processed

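RNA from 8 cultures of the C2C12 line, 25 ng each per the labels' protocols, was amplified and hybridised to 1-colour Affymetrix arrays. The authors deposited 1 log2 value for each probe set and array, and the submitters' processing notes name RMA as their tool. That method corrects background, equalises the arrays' distributions and summarises probes, so a shift of all transcripts would not show, and low signals are compressed. The sources used here do not give the RMA settings. No detection call accompanied the values, and the number of arrays limits the precision.

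After 64 control probe sets were left out, 45037 entered the tests. The platform annotation gave 1 symbol to 34945, several to 932 and none to 9160. limma 3.58.1 (R 4.3.3) tested group alone, 4 arrays against 4, with Benjamini-Hochberg adjustment over all probe sets, and 0.05 as the threshold. A gene's brightest probe set has the highest mean over the 8 arrays. Exact permutation tests used scipy 1.17.1, and figures matplotlib 3.10.9. The fit was tested on simulated data. Promoter windows came from RefSeq, GRCm38.p6.

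Both groups carry replicate numbers 1 to 4. Once group means were removed, arrays with the same number had correlations of 0.142 to 0.468 across probe sets, against -0.394 to 0.265 for different numbers. As all 4 pairs exceeded 0.1, the numbers were used as the block of the paired fit. The main fit, from which the calls are given unless the paired fit is named, left them out. The 2 ranges overlap, however, and 5 of the 8 arrays correlated best with the same-numbered array of the other group. The members and lists were chosen with earlier results of these data known. The text names every member, up to 6 called genes of each list by p or the 2 smallest p where none was called, the 4 pairs, and the 5 genes most like Cav3 and Dmd. Alternatives were the replicate block, each array left out, cyclic loess, median centring, a filter at the median level, a variance trend with a robust prior, array weights and averaging each gene's probe sets. In the last of these the adjustment ran over 18193 genes.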

Additional observations from a re-analysis of the deposited data

Results flagged for a closer look

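In 4 of 62 groups of 4 arrays tested, over the member probe sets and the named genes of the lists, 1 array stood apart from the other 3 by Dixon's criterion, which chance meets in about 1 of 20 groups. Scrambled 4 was the lowest of its group for Sgcb 1436678_at (9.70) and for Dag1 1426779_x_at (10.82). DOR siRNA 3 was the highest for Dmd 1448665_at (3.27), a dim probe set. DOR siRNA 4 was the highest for S100a10 (12.70).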

How the results depend on the processing

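Directions of all 18 member probe sets held under each alternative run (254 values, 0 reversed). The number called lower was 0, against 2 in the paired fit, 3 with array weights, 1 with the filter on dim probe sets (Sgcb 1419668_at, limma adjusted p = 0.0494) and 0 to 2 with 1 array left out. Over all probe sets 1452 passed, against 2827 paired, 2628 with array weights and 608 (without scrambled 3) to 2310 (without scrambled 4) with 1 array left out. Without scrambled 1 or 2 or DOR siRNA 1 or 3 it was 627, 669, 821 or 615. With the filter on dim probe sets 1684 passed, out of fewer tested. A larger share of probe sets thus passed with that filter than without it, and the Sgcb call there stands beside this rise. Cav3 passed in the paired fit (-1.55) and with array weights (-1.68), and ran from -1.84 to -1.18 with 1 array left out. Dysf passed paired (-0.54) and with array weights (-0.68), and ran from -0.70 to -0.41. Sgcb passed as the mean of its probe sets (-0.32), and its probe set 1436678_at passed with array weights (-0.37, limma adjusted p = 0.0313). Those weights were lowest for DOR siRNA 2 (0.456) and scrambled 4 (0.639). Leaving out either of these arrays also gave member calls, as did leaving out DOR siRNA 1, whose weight was 1.355. The filter dropped 6 member probe sets and gave no value for them. The paired fit ended no call among the list genes named as called, and its additions stand beside their lists and markers. It moved caveolar genes higher to 5, membrane repair to 6 higher and 1 lower, and laminins and receptors to 2 lower. Without 1 array, the numbers ran from 1 to 3 (caveolar, higher), 1 to 3 (caveolar, lower), 1 to 6 (repair, higher), 0 to 2 (laminins, lower) and 0 to 2 (laminins, higher). The 6 repair genes came without scrambled 4. In the mean over probe sets the other dystrophin complex genes held 0 higher. The pair shifts without 1 array were -2.62 to -2.15 for Cav3 minus Cav1, -1.02 to -0.77 for Sgca minus Sgce, -0.74 to -0.31 for Dysf minus Myof and 0.08 to 0.23 for Dmd minus Utrn. The cause of these changes was not tested.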
